A study of Mus musculus with 10 samples.

Results

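The acinar cells of the exocrine pancreas make the digestive enzymes, pack them as inactive zymogens into zymogen granules and release them into the ducts. An islet preparation is freed from this tissue with collagenase, so its RNA can hold acinar transcripts beside those of the endocrine cells. Described here are 34 listed acinar digestive enzyme and secretory genes in islet preparations of 2 mouse strains. Of these, 31 were measured among the 19938 genes of the array, each by the brightest probe set that carries its symbol alone. Prss1, Amy2a5 and Pnlip had no such probe set and were not analysed here.

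The preparations came from male mice aged 6 weeks, fed a high-fat diet (45% of energy as fat) after weaning at day 21, and rested overnight in 10 mM glucose medium. The 5 NZO arrays came from NZO/Hl mice, an inbred obese strain that is prone to diabetes, and the 5 C3H arrays from C3HeB/FeJ mice. The labels differ only in strain and in the source of the mice. NZO came from the German Diabetes Centre Düsseldorf and C3H from the Jackson Lab, so strain and source cannot be told apart. The design sought genes that differ between islets of the strains within a region linked to a trait. Sample titles mostly hold a pair of animal numbers. NZO replicate 4 has a single number and NZO replicate 5 has numbers joined by a hyphen, which may be a range. Whether animals were pooled is not stated, so each p-value describes variation among these arrays, which may be partly technical. Values are log2 RMA values. They rank arrays for 1 gene but do not give transcript amounts that could be set between genes, and they compress differences near the bottom and the top of the scale.

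All arrays held strong islet hormone signals. Ins2 averaged 12.45 in NZO and 12.33 in C3H, and Gcg averaged 13.21 in NZO and 13.25 in C3H. Of 6 measured hormone genes, Sst (-0.75) and Ppy (-0.41) were lower in NZO, where 4.61% of all genes were called lower. Ins2 (0.12), Gcg (-0.04), Pyy (-0.39) and Iapp (-0.03) did not pass. Pyy lay lower on every NZO array than on every C3H array, and it passed with array weights (-0.34, limma adjusted p = 0.0432). Array medians over all probe sets ranged between 6.93 and 6.99 in NZO and between 6.93 and 7.05 in C3H, where C3H replicate 4 was the highest. The 25th percentile of all probe sets, below which a gene is called dim here, was 5.65 to 5.74 on NZO arrays and 5.68 to 5.85 on C3H arrays. The highest values of the arrays, 13.96 to 14.05 in NZO and 13.97 to 14.05 in C3H, mark the top of the scale. Gcg, Sst, Ppy, Pyy and Iapp lay near it, so their differences can be understated.

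Pancreatic enzyme genes are switched on by the PTF1 complex, in which the factor Ptf1a binds an E-box, CANNTG, and Rbpjl or its relative Rbpj binds a nearby TTCCCA. RefSeq promoters of assembly GRCm38.p6, the reference genome of another strain, were found for 23 of the 31 genes, in 24 windows of the 250 bases before the start. TTCCCA on either strand stood in 14 of the 24 windows (58.3%), against 21.6% of all 32851 windows of the table. CANNTG, which reads the same on both strands, stood in 19 (79.2%), against 66.2% of all windows. Both within 30 bases of each other, without overlap, stood in 8 (33.3%), against 5.72% of all windows. Those 8 belong to Ctrb1, Ctrl, Cela2a, Cpa1, Cel, Pnliprp1, Pdia2 and Aqp12. TATAAA, the core of a TATA box, stood on either strand in 7 windows (29.2%), against 12.4% of all. Overlaps of TATAAA with the other motifs were not removed, and a match describes letters and not a bound site. 5 windows are printed to set the trypsinogens Prss3 and Try4, which had the 2 smallest adjusted p values, beside the enzymes Ctrb1 and Cpa1 and beside Aqp12, a member that did not pass. They run 5′ to 3′ toward the gene's start, and capitals mark TATAAA and each pair of E-box and TTCCCA within 30 bases (a motif on the other strand shows as its reverse complement, TGGGAA). The window of Prss3 lies on the minus strand at chr6:41377614-41377863, Try4 on the plus strand at chr6:41302022-41302271, Ctrb1 on the minus strand at chr8:111691011-111691260, Cpa1 on the plus strand at chr6:30638968-30639217 and Aqp12 on the plus strand at chr1:93006084-93006333.
Prss3: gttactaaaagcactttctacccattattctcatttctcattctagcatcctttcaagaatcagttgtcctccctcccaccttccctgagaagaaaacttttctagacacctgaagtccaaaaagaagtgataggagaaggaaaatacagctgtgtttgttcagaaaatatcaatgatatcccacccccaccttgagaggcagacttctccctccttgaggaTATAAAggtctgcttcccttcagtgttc
Try4: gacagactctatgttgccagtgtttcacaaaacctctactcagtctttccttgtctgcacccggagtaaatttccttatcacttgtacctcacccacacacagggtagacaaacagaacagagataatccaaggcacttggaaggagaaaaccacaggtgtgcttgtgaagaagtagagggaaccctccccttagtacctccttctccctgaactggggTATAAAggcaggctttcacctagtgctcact
Ctrb1: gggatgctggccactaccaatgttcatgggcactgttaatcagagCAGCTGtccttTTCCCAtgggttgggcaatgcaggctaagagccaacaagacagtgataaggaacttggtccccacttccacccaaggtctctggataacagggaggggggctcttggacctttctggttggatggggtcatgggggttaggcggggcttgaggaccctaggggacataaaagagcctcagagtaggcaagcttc
Cpa1: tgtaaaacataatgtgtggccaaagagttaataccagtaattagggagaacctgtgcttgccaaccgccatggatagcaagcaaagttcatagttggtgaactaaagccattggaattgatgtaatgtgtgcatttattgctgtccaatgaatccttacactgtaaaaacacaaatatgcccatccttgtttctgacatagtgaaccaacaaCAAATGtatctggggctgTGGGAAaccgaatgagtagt
Aqp12: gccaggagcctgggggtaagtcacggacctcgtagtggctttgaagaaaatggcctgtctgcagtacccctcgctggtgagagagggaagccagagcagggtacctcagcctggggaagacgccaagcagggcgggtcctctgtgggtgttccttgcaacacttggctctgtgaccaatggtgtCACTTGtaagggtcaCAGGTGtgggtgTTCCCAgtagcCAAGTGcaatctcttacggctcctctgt
The TATAAA of Prss3 begins 28 bases and that of Try4 31 bases before the start, and neither window holds a TTCCCA. The pair is 5 bases apart in Ctrb1, where the E-box begins 205 bases before the start, and 12 bases apart in Cpa1, where it begins 38 bases before the start. In Aqp12 3 E-boxes lie within 30 bases of 1 TTCCCA.

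Digestive enzyme transcripts were higher in NZO preparations in nearly every class. Of the 31 genes, 27 rose in NZO and none fell (limma, Benjamini-Hochberg adjusted p below 0.05 over all genes), where 5.47% of all genes tested were called higher and 4.61% lower. The median difference over the 31 was 2.20 log2 units, NZO minus C3H, against -0.02 over all genes. Every NZO array lay above every C3H array in 27 of the 31, where 4.96% of all genes did so. Among the 50 largest positive differences of the array, 22 were members. In such bulk samples, more acinar cells in a preparation and more of a transcript per acinar cell cannot be told apart.

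**Figure D1:**
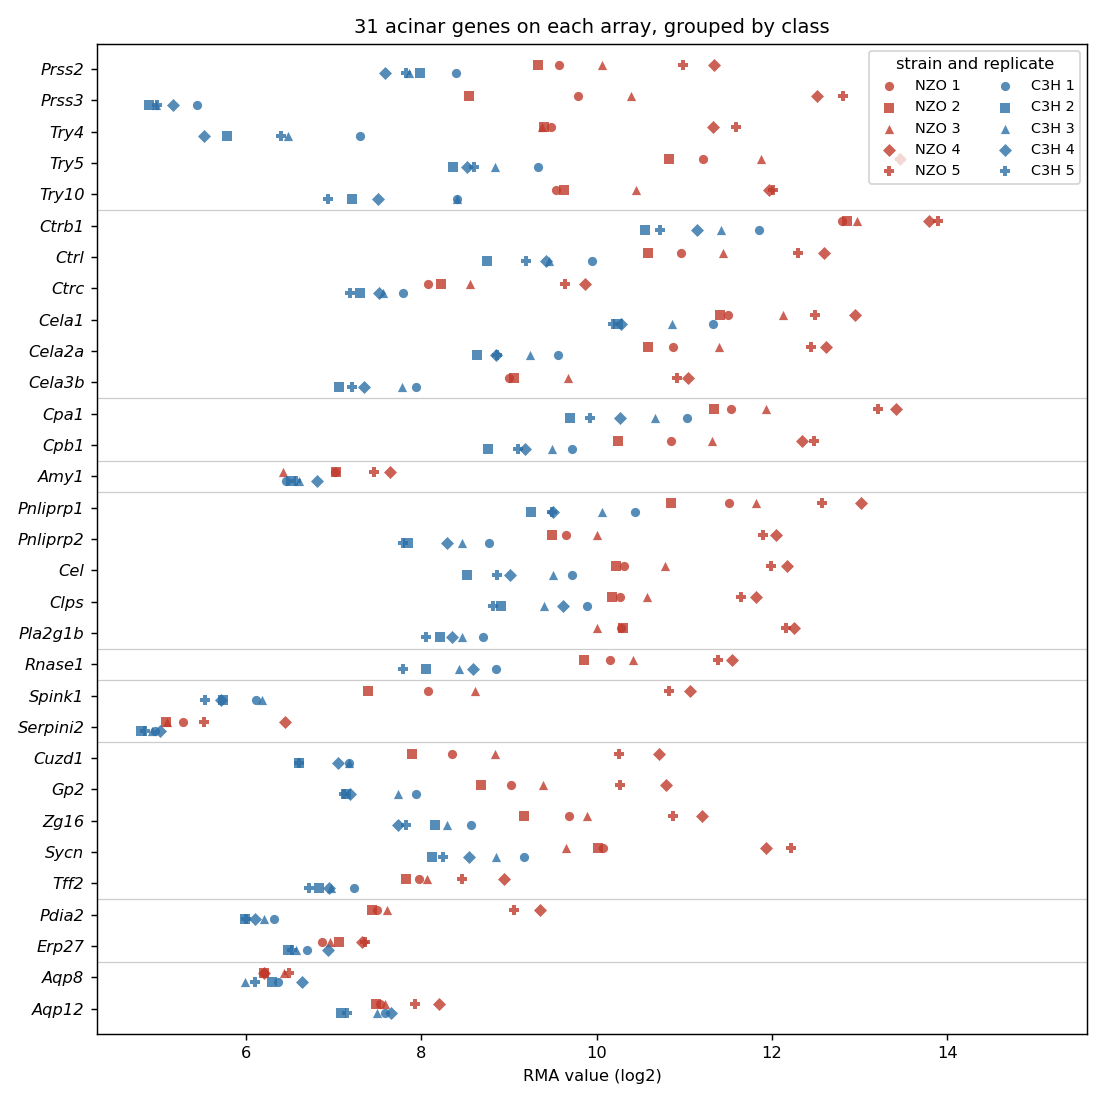
RMA values (log2, horizontal axis) of the 31 acinar genes, grouped by class between grey lines. Each symbol is 1 array, NZO in red above C3H in blue, and the shape gives the replicate. NZO replicates 4 and 5 lie to the right of the other NZO arrays in 30 of the 31 genes, and the strains overlap in Amy1, Erp27, Aqp8 and Aqp12.

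Trypsinogens, the precursors of trypsin, which activates the other zymogens in the gut, all rose, by a median of 3.44 log2 units. Prss3 read 9.79, 8.54, 10.39, 12.51 and 12.81 on the NZO arrays, replicates 1 to 5, against 5.44, 4.89, 4.98, 5.16 and 4.99 on the C3H arrays. Its C3H values were all dim, so no fold is given, while every NZO array lay at least 3.10 log2 units above the highest C3H array. The fitted difference of RMA values was 5.72 (SE 0.62, limma adjusted p = 3.52e-05), and its size is not exact, since the C3H values lie where RMA compresses. Try4, another trypsinogen, read 9.48, 9.40, 9.38, 11.33 and 11.59 on the NZO arrays, against 7.30, 5.78, 6.48, 5.52 and 6.40 on the C3H arrays. Its C3H arrays spread over 1.78 log2 units and its NZO arrays over 2.21, with a gap between the strains and C3H replicate 4 dim. Try4 was 15.4-fold higher (difference 3.94, SE 0.45, limma adjusted p = 5.38e-05).

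Try5 read 11.21, 10.83, 11.87, 13.46 and 13.46 on the NZO arrays, against 9.33, 8.36, 8.84, 8.52 and 8.60 on the C3H arrays. NZO replicates 4 and 5 lay near the top of the scale, where differences are compressed, and Try5 was 10.8-fold higher (difference 3.44, SE 0.44, limma adjusted p = 0.000155). Try10 (3.03, SE 0.47) and Prss2 (2.33, SE 0.32) also rose. These genes are neighbours in 1 cluster on chromosome 6 of GRCm38.p6, in the order Try4, Try5, Try10, Prss3 and Prss2, with Gm5771, the pseudogene Gm5409 and Prss1 between the last of them. They are closely related copies that can share sequence, so which copy a probe set measured is uncertain. From a list of other digestive enzyme genes, 6 of 18 were measured and 4 rose, where 5.47% of all genes did, with a list median of 1.43. Gm5771 (4.29), Gm5409 (2.52, dim in C3H) and 2210010C04Rik (2.39) were among them. Cela3a, annotated as an elastase, was higher by 0.47 (limma adjusted p = 0.0183). The Cela3a call ended without NZO replicate 4, NZO replicate 5, C3H replicate 2 or C3H replicate 3 (limma adjusted p = 0.0518, 0.0534, 0.0519 and 0.0559). It also ended without both NZO replicates 4 and 5 (limma adjusted p = 0.17; over all alternatives 0.0074 to 0.17). The remaining 2 did not pass.

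The chymotrypsinogens and elastases, which cut proteins beside bulky and small residues, rose in all 6 measured genes, by a median of 2.17. Ctrb1, the main chymotrypsinogen, read 12.80, 12.86, 12.97, 13.79 and 13.90 on the NZO arrays, against 11.85, 10.56, 11.42, 11.15 and 10.72 on the C3H arrays. The strains did not overlap, C3H values lay well above the array medians, and NZO replicates 4 and 5 reached the top of the scale. Ctrb1 was 4.36-fold higher (difference 2.12, SE 0.26, limma adjusted p = 0.000106), a size that compression can understate. The elastase Cela2a read 10.87, 10.59, 11.40, 12.62 and 12.45 on the NZO arrays, against 9.55, 8.64, 9.24, 8.85 and 8.86 on the C3H arrays, a 5.89-fold rise (SE 0.34 on the log2 scale). The lowest NZO array exceeded the highest C3H array by 1.03. Cela3b, another protease of this class, read 9.0, 9.05, 9.67, 11.04 and 10.92 on the NZO arrays, against 7.93, 7.06, 7.78, 7.34 and 7.21 on the C3H arrays. It was 5.55-fold higher, with the NZO arrays again all above C3H.

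The other members of that class also rose. The chymotrypsin-like Ctrl rose by 2.22 (SE 0.33). Cela1 rose by 1.52 (SE 0.28), with only 0.0867 between NZO replicate 2 and C3H replicate 1, its nearest arrays. Ctrc, which in humans degrades trypsinogen, rose by 1.40 (SE 0.30, limma adjusted p = 0.00683). The annotation of GRCm38.p6 lists Ctrc as a transcribed pseudogene, and the probe set does not show whether the NZO or C3H transcript is intact.

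Both carboxypeptidases, which trim amino acids from the ends of peptides, rose. Cpa1 read 11.53, 11.34, 11.93, 13.41 and 13.21 on the NZO arrays, against 11.04, 9.70, 10.66, 10.27 and 9.92 on the C3H arrays. C3H replicate 1 came close to the lower NZO arrays, and the 3.9-fold difference had an SE of 0.38 on the log2 scale (limma adjusted p = 0.00355). Cpb1 read 10.85, 10.24, 11.32, 12.34 and 12.49 on the NZO arrays, against 9.72, 8.76, 9.49, 9.18 and 9.10 on the C3H arrays. Its 4.58-fold difference (2.20, SE 0.35) is the median of the 31 members. The ribonuclease Rnase1, which degrades dietary RNA, read 10.15, 9.86, 10.41, 11.55 and 11.38 on the NZO arrays, against 8.85, 8.06, 8.43, 8.59 and 7.79 on the C3H arrays, a 5.02-fold rise (limma adjusted p = 0.000152).

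Enzymes of fat digestion rose together, 5 of 5, by a median of 2.20. Pla2g1b, the pancreatic phospholipase, read 10.28, 10.30, 10.00, 12.25 and 12.16 on the NZO arrays, against 8.71, 8.21, 8.46, 8.35 and 8.05 on the C3H arrays. NZO replicates 4 and 5 stood above replicates 1 to 3, which were themselves above every C3H array, for a 6.24-fold difference (SE 0.39 on the log2 scale, limma adjusted p = 0.000504). Pnliprp1, a relative of pancreatic lipase with little lipase activity, read 11.51, 10.85, 11.82, 13.01 and 12.57 on the NZO arrays, against 10.44, 9.25, 10.06, 9.50 and 9.48 on the C3H arrays. The strains were separated by 0.411, and the difference was 4.61-fold (limma adjusted p = 0.000665). Cel, the bile salt-activated lipase that splits cholesteryl esters, read 10.31, 10.22, 10.78, 12.17 and 11.99 on the NZO arrays, against 9.72, 8.52, 9.50, 9.01 and 8.86 on the C3H arrays. It was 3.93-fold higher (log2 SE 0.36). Pnliprp2, a lipase that also splits galactolipids, rose by 2.38 and the lipase cofactor Clps by 1.57.

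The only amylase measured was Amy1, the salivary form of the starch-splitting enzyme, and it did not pass. It read 7.02, 7.03, 6.42, 7.64 and 7.46 on the NZO arrays, against 6.45, 6.51, 6.60, 6.80 and 6.57 on the C3H arrays. NZO replicate 3 was the lowest of all 10 arrays and the other NZO arrays were above every C3H array. The difference was 0.53 (SE 0.18, limma adjusted p = 0.0792), and 0.70 without NZO replicate 3 (limma adjusted p = 0.00478; over all alternatives 0.00478 to 0.535). This value does not speak to the pancreatic amylases.

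Of the 2 protease inhibitors, 1 rose. Spink1, which blocks trypsin that becomes active too early inside the pancreas, read 8.08, 7.39, 8.62, 11.07 and 10.82 on the NZO arrays, against 6.12, 5.74, 6.18, 5.72 and 5.53 on the C3H arrays. It spread over 3.68 log2 units within NZO and 0.656 within C3H, with no overlap. C3H replicates 4 and 5 were dim and the C3H mean (5.86) lay close to the dim range, so the size is approximate, and Spink1 was 10.1-fold higher (log2 SE 0.57, limma adjusted p = 0.00149). Serpini2, a pancreatic serpin, read 5.28, 5.09, 5.09, 6.45 and 5.52 on the NZO arrays, against 4.96, 4.80, 4.93, 5.02 and 4.85 on the C3H arrays. All its C3H arrays and 4 of its NZO arrays were dim, and its difference of 0.58 did not pass (SE 0.20, limma adjusted p = 0.0942), although the strains did not overlap. Without NZO replicate 2 Serpini2 passed (0.67, limma adjusted p = 0.0429; over all alternatives 0.0378 to 0.2).

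Proteins of the zymogen granule and other secreted proteins rose in all 5 genes, by a median of 2.19. Tff2, a mucus-stabilising trefoil peptide best known from the stomach, read 7.98, 7.82, 8.06, 8.94 and 8.46 on the NZO arrays, against 7.24, 6.83, 6.97, 6.94 and 6.72 on the C3H arrays. It had the smallest spread of the group and was 2.48-fold higher (log2 SE 0.18, limma adjusted p = 0.000232). Gp2, the main glycoprotein of the granule membrane, read 9.03, 8.68, 9.39, 10.79 and 10.26 on the NZO arrays, against 7.93, 7.14, 7.73, 7.19 and 7.12 on the C3H arrays, a 4.62-fold difference. Zg16, a granule lectin, read 9.68, 9.18, 9.88, 11.21 and 10.87 on the NZO arrays, against 8.56, 8.16, 8.29, 7.74 and 7.82 on the C3H arrays, a 4.14-fold difference. Both had their highest values on NZO replicates 4 and 5. The membrane protein Cuzd1 (2.29, SE 0.43) and syncollin, encoded by Sycn (2.19, SE 0.43), also rose.

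Both proteins of the endoplasmic reticulum rose. Pdia2, a disulfide isomerase enriched in the pancreas, read 7.50, 7.44, 7.61, 9.35 and 9.05 on the NZO arrays, against 6.32, 5.98, 6.21, 6.10 and 6.00 on the C3H arrays. The C3H arrays spanned only 0.333, and the difference was 4.19-fold (SE 0.32 on the log2 scale, limma adjusted p = 0.000777). Erp27, a non-catalytic relative that binds unfolded proteins, read 6.86, 7.06, 6.96, 7.32 and 7.36 on the NZO arrays, against 6.70, 6.48, 6.56, 6.94 and 6.53 on the C3H arrays. C3H replicate 4 lay above NZO replicate 1, so the strains overlapped, and the difference was 0.47 (SE 0.11, limma adjusted p = 0.0161). The Erp27 call ended when NZO replicates 4 and 5 were left out (0.32, limma adjusted p = 0.156; over all alternatives 0.000862 to 0.156).

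Neither water channel passed. Aqp8, a channel of the acinar cell's apical side, read 6.20, 6.20, 6.44, 6.20 and 6.49 on the NZO arrays, against 6.37, 6.29, 5.99, 6.64 and 6.11 on the C3H arrays. The strains overlapped throughout, with a difference of 0.03 (SE 0.12, limma adjusted p = 0.943) whose sign turned under 5 of the alternatives. Aqp12, an intracellular channel of acinar cells, read 7.53, 7.48, 7.59, 8.20 and 7.92 on the NZO arrays, against 7.59, 7.08, 7.49, 7.65 and 7.16 on the C3H arrays. NZO replicates 4 and 5 were the 2 highest, the others overlapped with C3H, and the difference was 0.35 (SE 0.15, limma adjusted p = 0.178).

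**Figure D2:**
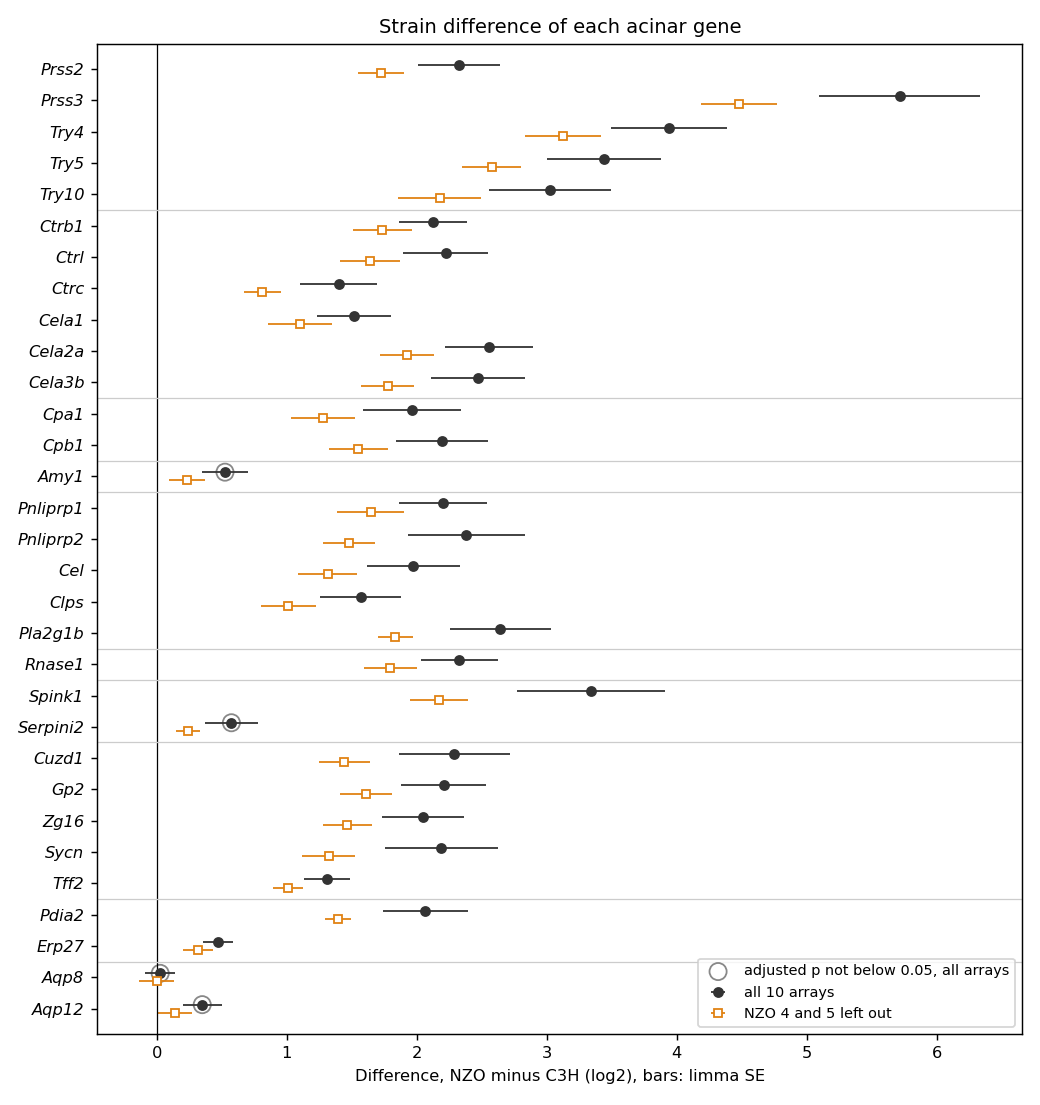
Differences, NZO minus C3H (log2, horizontal axis), of the 31 acinar genes with their limma SE, over all 10 arrays (filled circles) and with NZO replicates 4 and 5 left out (open squares). Grey rings mark Amy1, Serpini2, Aqp8 and Aqp12, which did not pass, and Prss3 stands farthest right at 5.72 and 4.48.

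Array by array, the same preparations were high for most of the genes. NZO replicate 4 was the highest of all 10 arrays for 23 genes and NZO replicate 5 for 7, and both exceeded NZO replicates 1 to 3 in 30 of 31. NZO replicate 2 was the lowest NZO array for 22 genes. Within C3H, replicate 1 was the highest array for 23 genes, while replicate 2 was the lowest for 16 and replicate 5 for 10. Set against the C3H mean of each gene, the median over the 31 was 1.53, 1.23, 1.77, 3.23 and 2.93 log2 units on NZO replicates 1 to 5, against 0.47, -0.32, 0.18, -0.02 and -0.26 on C3H replicates 1 to 5. These medians spanned 1.23 to 3.23 among NZO arrays and -0.32 to 0.47 among C3H arrays.

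NZO replicates 4 and 5 are the arrays whose titles differ in form from the others, with a single number and with numbers joined by a hyphen. With both left out, 26 of the 31 genes were called higher in NZO and none lower, where 3.07% of all genes were higher, 2.47% lower and 5.54% called in either direction. The median difference was 1.48. The trypsinogens kept a median of 2.58 (5 of 5 called), the chymotrypsinogens and elastases 1.69 (6 of 6), the carboxypeptidases 1.42 (2 of 2), the fat-digesting group 1.48 (5 of 5) and the granule and secreted proteins 1.44 (5 of 5). Prss3 was then 4.48, Try4 3.13, Spink1 2.17 and Ctrb1 1.73. Among called genes the difference shrank most, relative to its size, in Ctrc (0.81), Sycn (1.32), Pnliprp2 (1.48), Cuzd1 (1.44), Clps (1.01), Spink1 and Cpa1 (1.28).

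**Figure D3:**
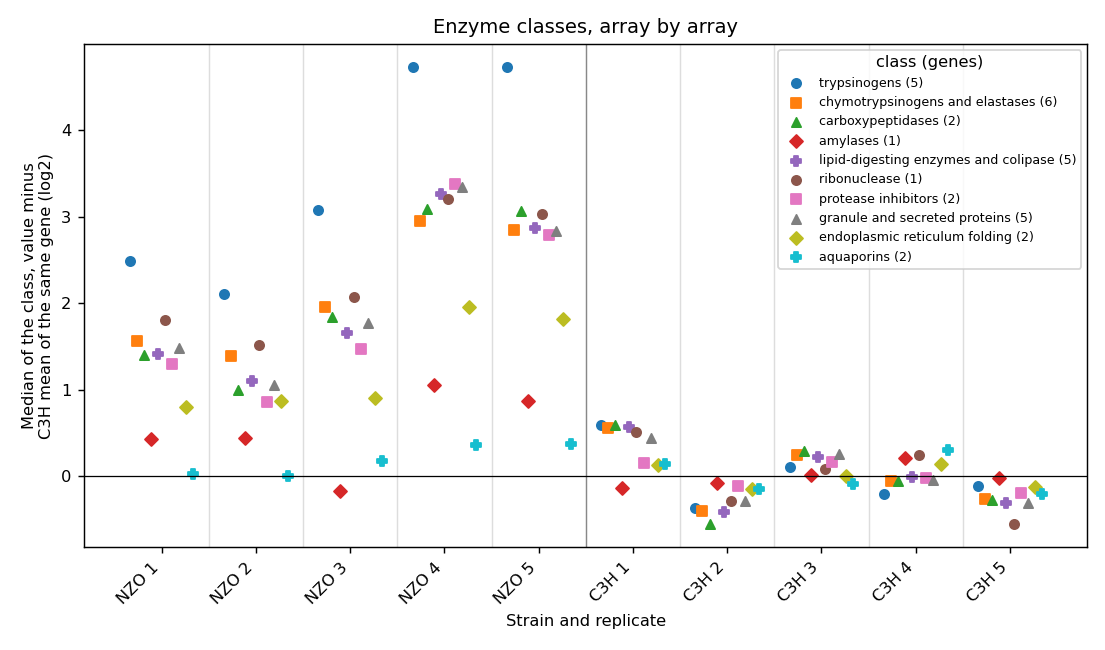
Median over each class of the value minus the C3H mean of the same gene (log2, vertical axis) on each array (horizontal axis, NZO left of C3H). Numbers in the legend are genes per class. Trypsinogens reach 4.73 on NZO replicates 4 and 5 and 2.10 on NZO replicate 2, and the aquaporins stay between 0.00 and 0.37 on the NZO arrays.

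The members differed in how far they moved. The value of Cpb1, the median member, was subtracted on the same array from each of the other 30 genes. Prss3, Try4, Try5, Cela2a and Spink1 lay higher relative to Cpb1 on every NZO array than on every C3H array, where 0.0401% of all genes did. Ctrc, Serpini2, Erp27, Aqp8 and Aqp12 lay lower in the same sense, where 97.6% of all genes did, since Cpb1 itself rose. Cpb1 was picked as the median member from these same data, and its difference ranked 30 from the top of all 19938 genes. Both shares of all genes, and members on either side of Cpb1, thus follow largely from the choice of reference. Prss3 minus Cpb1 was -1.07, -1.70, -0.92, 0.16 and 0.33 on the NZO arrays and -4.28, -3.87, -4.52, -4.02 and -4.11 on the C3H arrays, where Prss3 itself was dim. Ctrl minus Cpb1 was 0.11, 0.34, 0.13, 0.25 and -0.19 in NZO and 0.23, -0.02, -0.04, 0.23 and 0.09 in C3H, with full overlap. With NZO replicates 4 and 5 left out, 5 lay higher and 5 lower, and 9 lay lower without NZO replicate 2. Leaving out arrays can only keep or raise such counts, so they do not show that the pattern is stable. This comparison was chosen after the values were seen and carries no test, and compression of dim and bright values was not removed from it.

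Genes upstream of the enzymes were looked at next. Of 8 transcription factors that act in acinar cells, 1 rose, where 5.47% of all genes were higher and 10.1% were called in either direction, and the list median was 0.11. Ptf1a, the DNA-binding subunit of PTF1, read 5.52, 5.99, 5.97, 6.16 and 6.08 on the NZO arrays, against 5.83, 5.59, 6.07, 5.68 and 5.61 on the C3H arrays, a difference of 0.18 (SE 0.12). Rbpjl, its acinar partner, read 6.38, 6.53, 6.74, 6.58 and 6.65 on the NZO arrays, against 6.60, 6.49, 6.33, 6.85 and 6.43 on the C3H arrays, a difference of 0.04 (SE 0.10). Both lay below the array medians, where differences are compressed. Bhlha15 (-0.18), which drives the secretory architecture of acinar cells, and Xbp1 (-0.12), which expands the endoplasmic reticulum, were bright and did not pass; both are also active in endocrine cells.

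Gata4 rose by 0.55 (SE 0.10, limma adjusted p = 0.00177), with every NZO array above every C3H array. Nr5a2 (0.40, limma adjusted p = 0.0663), Mecom (0.33) and Gata6 (-0.20) did not pass. Without NZO replicate 2, Nr5a2 (0.51) and Mecom (0.45) passed as well, and Gata6 passed as lower without C3H replicate 4 (-0.25).

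The list for acinar secretion joined genes of the release machinery with the glycoproteins Dmbt1 and Muc1. Of its 17 genes 16 were measured and 4 rose, where 5.47% of all genes did, with a list median of 0.19. Dmbt1, a secreted mucosal glycoprotein (3.13, SE 0.47), and the mucin Muc1 (1.58, SE 0.28), which ducts express too, had the largest differences. The granule SNARE gene Vamp8 (0.59, SE 0.09) and the calcium channel gene Itpr2 (0.41, SE 0.09) rose less, and Itpr2 did not pass without NZO replicates 4 and 5.

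Of 17 measured genes of 21 for protein entry into and folding in the endoplasmic reticulum, none rose (5.47% of all genes) and 1 fell (4.61% of all genes). Srpr, which encodes a subunit of the receptor for the signal recognition particle, fell by 0.55 (SE 0.08). The list median was -0.06. Endocrine cells express these genes as well.

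**Figure D4:**
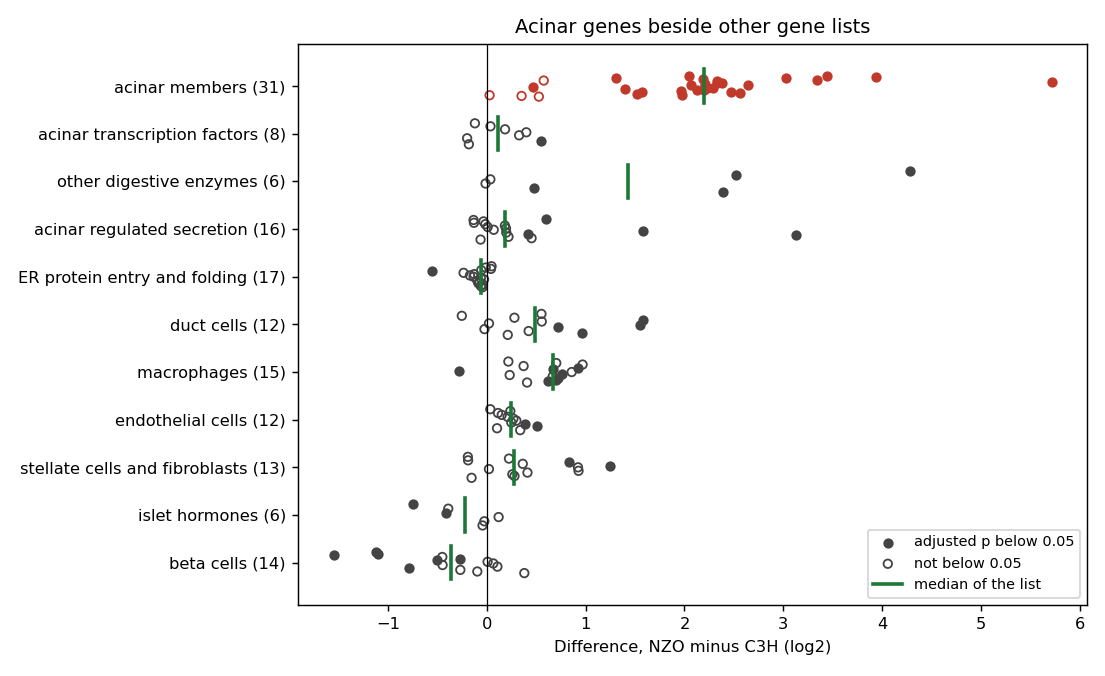
Differences, NZO minus C3H (log2, horizontal axis), of the acinar members (red) and of the genes of 10 other lists (grey), with the number measured in brackets. Filled points passed the limma test and green bars are list medians. The acinar members centre on 2.20, against 0.11 for acinar transcription factors and -0.06 for genes of the endoplasmic reticulum (ER).

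Markers of other cell types were set beside the enzymes on the same arrays. Mean values over 12 duct genes were 9.40 and 9.43 on NZO replicates 4 and 5 and 8.63 to 8.99 on the other NZO arrays, against 8.35 to 8.64 in C3H. Over 15 macrophage genes they were 8.69 and 8.83 on those 2 NZO arrays and 7.67 to 8.14 on the other NZO arrays, against 7.60 to 7.76 in C3H. Over 13 stellate cell and fibroblast genes they were 9.39 and 9.41 on those 2 arrays and 8.24 to 8.82 on the other NZO arrays, against 8.43 to 8.71 in C3H. These 3 lists were thus highest on the NZO arrays on which most enzymes were highest. Endothelial genes did not set those 2 arrays apart, with 9.46, 9.05, 9.36, 9.49 and 9.43 on the NZO arrays over 12 genes, against 9.04 to 9.31 in C3H. Within C3H the lists did not have the enzymes' order. There the mean of the 31 acinar genes was highest on replicate 1 (8.35) and lowest on replicate 2 (7.61), while macrophage (7.76) and stellate (8.71) means were highest on replicate 2 and the duct (8.64) and endothelial (9.31) means on replicate 5. Over 14 beta cell genes the means were 10.22 and 10.43 on NZO replicates 4 and 5 and 10.58 to 10.97 on the other NZO arrays, against 10.94 to 11.04 in C3H.

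In these lists 4 of 12 duct genes, 6 of 15 macrophage genes, 2 of 13 stellate genes and 2 of 12 endothelial genes rose, where 5.47% of all genes did. Among those that fell were 1 macrophage gene and 6 of 14 beta cell genes, where 4.61% of all genes did. The macrophage gene, Cx3cr1 (-0.28), lost its call in 9 of the fits that left out 1 array (limma adjusted p up to 0.118). Pcsk1 (-0.27), from the beta cell list, lost its call in 7 (limma adjusted p up to 0.123). Neither passed without both NZO replicates 4 and 5 (limma adjusted p = 0.165 and 0.323). Without NZO replicates 4 and 5, 3 duct, 2 macrophage, 1 stellate, 1 endothelial and 1 beta cell gene were higher, where 3.07% of all genes were. The beta cell gene was Abcc8 (0.49, limma adjusted p = 0.0139), which did not pass over all arrays (0.38). In the same fit 5 beta cell genes and 1 stellate gene, Sparc (-0.50, limma adjusted p = 0.0361), were lower, where 2.47% of all genes were. The duct keratin genes Krt19 (1.55, SE 0.24) and Krt18 (0.72, SE 0.12) rose, as did Muc1, which is in both the duct and the secretion list, and the carbonic anhydrase gene Car2 (0.96, SE 0.28). The Car2 call ended in the fits without NZO replicate 3, 4 or 5 or C3H replicate 1, 3 or 4 (limma adjusted p between 0.084 and 0.112). The macrophage genes Fcer1g (0.67), Csf1r (0.76), Itgam (0.92) and C1qa (0.62) rose, as did the endothelial genes Emcn (0.51) and Eng (0.39), and the stellate and pericyte genes Pdgfra (1.25) and Rgs5 (0.83). Car2 (0.68, limma adjusted p = 0.286), Itgam, C1qa, Eng and Rgs5 did not pass without NZO replicates 4 and 5. With a trended robust prior, Car2, Itgam and Rgs5 did not pass either (limma adjusted p = 0.128, 0.0576 and 0.0537). Leaving out 1 array also ended the call of Itgam (without NZO replicate 5, limma adjusted p = 0.0507), C1qa (without NZO replicate 4, 0.0531), Eng (without C3H replicate 1, 0.0525) and Rgs5 (without NZO replicate 5, C3H replicate 1 or C3H replicate 3, 0.0527, 0.0506 and 0.0522). From the beta cell list, Isl1 (-0.79), Slc30a8 (-1.10), Ucn3 (-1.12) and Pax6 (-0.50) were among those that fell, while 8 of its 14 genes did not pass. Of these marker genes only Cftr, a chloride channel of ducts named after its values were seen, was dim on every array of a strain. The part of these cell types in the enzyme differences was not tested.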

How the data were processed

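The authors deposited log2 values for every probe set on every array; the submitters' processing notes name RMA and the Affymetrix Expression Console. RMA subtracts background, quantile-normalizes arrays together and summarises probes, and leaves no detection call. For software version, library files and build, no value is given in the sources used here. Of 35556 probe sets, 21789 carried exactly 1 symbol, 1621 several and 12146 are unnamed here. The brightest probe set per gene by mean of the 10 arrays left 19938 genes, with no filter. Differences (NZO minus C3H, 5 arrays each) were tested two-sided with limma 3.58.1 (lmFit, eBayes; R 4.3.3). p-values were adjusted by Benjamini and Hochberg's method over all genes at a threshold of 0.05, after the script was checked on simulated data. Folds are left out where a strain is dim on every array. Members, classes and lists were chosen with earlier results of these data known, so nothing is adjusted over a list alone. Named are all members, all acinar factors, the islet hormones and of each other list up to 4 called genes with the smallest p. Cftr, Abcc8, Sparc, Cx3cr1 and Pcsk1 were named outside this rule. Identity between trypsinogen proteins was not analysed here. The labels give no batch. The number of arrays limits the precision. Alternatives were brightness filters, probe set averaging, centring, array weights, a trended robust prior and left-out arrays.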

Additional observations from a re-analysis of the deposited data

Results flagged for a closer look

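1 of 104 groups of 5 arrays tested for a stray array was beyond the critical value of Dixon's test (0.71), where chance gives about 1 in 20. It was the mean of the 14 beta cell genes in C3H, where replicate 2, at 10.94, lay apart from the 11.02 to 11.04 of the other C3H arrays (ratio of gap to range 0.81). That array was also the lowest C3H array for 16 of the 31 acinar genes. No acinar gene and no class mean had a stray array in either strain. Dixon's ratio can miss 2 arrays that lie apart together, and NZO replicates 4 and 5 both exceeded NZO replicates 1 to 3 in 30 of the 31 genes. The result thus does not show that the NZO arrays were alike.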

How the results depend on the processing

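Over 17 alternatives, 25 to 29 members were called (27 as reported) and the median difference was 1.48 to 2.45. Leaving out 1 array gave 27 to 28 members and a median of 1.92 to 2.45. 25 were called of the 26 members at or above the median brightness. That brightness is the mean over the arrays of both strains. Members such as Prss3, dim on every C3H array, thus passed the filter through their NZO values, and this count is no separate support. The differences that turned sign were those of Aqp8: -0.000605 after centring, -0.01 without NZO replicate 3, -0.02 without NZO replicate 5, -0.0444 without C3H replicate 3 and -0.02 without C3H replicate 5, in a leave-one-out range of -0.0444 to 0.117. Serpini2 (0.57) and Aqp12 (0.43) passed with array weights, which gave C3H replicate 4 the lowest weight (0.191). Counts for the other lists hold calls in either direction. The share of all genes called was taken only over all 10 arrays (10.1%) and without NZO replicates 4 and 5 (5.54%). Whether a moved count is particular to its list was therefore not tested. For these lists, array weights moved the genes called to 3 acinar factors, 9 duct, 5 stellate and 10 beta cell genes, with Abcc8 (0.33) called higher. The trended prior moved them to 4 macrophage genes and 1 stellate gene, leaving out NZO replicates 4 and 5 to 2 macrophage genes and 1 endothelial gene, and the median brightness filter to 2 other digestive enzymes. Leaving out 1 array gave 1 to 3 acinar factors, 3 to 7 duct, 3 to 12 macrophage, 1 to 6 endothelial, 1 to 6 stellate, 5 to 9 beta cell, 4 to 5 secretion and 3 to 4 other enzyme genes, with the most without NZO replicate 2 for each of these lists except the other enzymes, where several settings gave 4. The causes were not tested, except that the brightness filter tests fewer genes. No paired analysis was possible because the labels give no replicate numbers that the strains share. The arrays carry no detection call, so dim members such as Serpini2 are not shown to be above background, and bright ones such as Ctrb1 and Try5 may be understated.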
